A study of Mus musculus with 20 samples.

Results

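A set of 10 genes of the lipid droplet and of hepatic fat storage was followed across the livers of 20 male C57Bl/6J mice. They are Plin2, Plin4 and Plin5 (droplet coat proteins), Cidea and Cidec (droplet fusion), Pparg (a nuclear receptor), Cd36 and Fabp4 (fatty acid uptake and binding), Mogat1 (triglyceride synthesis) and Pnpla2 (lipolysis). They were chosen by name, by matching the Ensembl identifiers of the count table to gene symbols of the GENCODE M21 annotation, and all 10 were found among its 21780 genes and passed the filter on low counts, which left 15522 genes. All mice were fed a high-fat diet (HFD) with 42% of calories from fat, from 8 weeks of age. At 10 weeks of age each received a single oral gavage, and each of the 4 groups held 5 mice with 1 library per mouse. HFD control mice received corn oil. HFD + Aroclor mice received 20 mg/kg of Aroclor 1260, a commercial mixture of mostly non-dioxin-like polychlorinated biphenyls (PCBs). HFD + PCB 126 mice received 20 µg/kg of PCB 126, a dioxin-like congener that binds the aryl hydrocarbon receptor (AHR). HFD + Aroclor + PCB 126 mice received both at these doses, here called the combined exposure. The methods give 12 weeks of diet and 10 weeks after the gavage, whereas the labels give 12 weeks of exposure. By the methods, all mice were fasted for about 6 h before the livers were taken. No group on a control diet was analysed here, so the values describe the effect of the PCBs on a diet that all mice shared.

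A hepatocyte stores surplus fatty acids as triglyceride in droplets, each bounded by a phospholipid monolayer and coated by perilipins. CD36 takes up fatty acids, FABP4 carries them inside adipocytes and macrophages, MOGAT1 builds diglyceride from monoglyceride, the CIDE proteins fuse small droplets into large ones, and PNPLA2 (ATGL) makes the first cut of triglyceride when fat is released. In the fatty liver, PPARG, which is otherwise the master regulator of adipocytes, drives several of these genes. These are bulk libraries of whole liver, so fewer cells of a type and less RNA per cell cannot be told apart.

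Levels are CPM, the counts of a gene per 1000000 counts of the library after TMM normalization, and differences are log2 fold changes (log2FC) with their standard error (SE). Total counts of the libraries lay between 21836506 and 36854887. The hepatocyte markers (8 genes, albumin among them) summed to between 78561 and 110981 CPM in every library. Cyp1a2, a classic AHR target, was 249 to 517 CPM in HFD control, 1120.0 to 2601 CPM in HFD + PCB 126 and 537 to 992 CPM in the combined exposure, above every control mouse in both. Cyp1a1, another AHR target, was 0.219 to 0.94 CPM in HFD control, 4.09 to 314 CPM with PCB 126 and 0.792 to 2.62 CPM with the combined exposure, which overlapped the controls. Cyp2b10, a target of the constitutive androstane receptor, was 0.351 to 6.62 CPM in HFD control, 2.89 to 30.7 CPM with Aroclor and 1.43 to 25.7 CPM with both, with overlap. A trend with GC content set the libraries apart. Its slope, in log2 units per 10 percentage points of transcript GC, ran from -0.00292 to 0.502 in HFD control and from -0.675 to -0.127 in the combined exposure, so that these 2 groups did not overlap. With Aroclor the slope ran from -0.112 to 0.147 and with PCB 126 from -0.1 to 0.405, and both overlapped HFD control. The GC slope and the combined exposure cannot be told apart. The difference of the combined exposure from HFD control is therefore given on 2 scales for each of the 10 genes. These are the counts as they were deposited and the values after the trend was removed (GC correction). HFD control replicate 4 and combined exposure replicate 4 held Ucp1, the uncoupling protein of brown fat, at 28.6 and 3.93 CPM. The other 18 libraries held at most 0.483 CPM, and results are also given without these 2 libraries.

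With the combined exposure, Plin2, the main droplet coat of the hepatocyte, fell to 0.647 of the control level, and this was the 1 difference among the 10 genes that passed the test in every fit of this comparison. Cd36 rose to 2.19 times control, and Plin5, Cidec and Pnpla2 fell to 0.608, 0.657 and 0.642 of control, before GC correction. After it, these 4 no longer passed the test and Plin4 did. With Aroclor 1260 or PCB 126 alone, 0 of the 10 genes passed the threshold of an adjusted p under 0.05 by edgeR. DESeq2, run on the counts as deposited, called Cd36 with Aroclor.

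The promoters of Plin2, which fell, and Cd36, which rose, are shown because these are the 2 genes whose control and combined groups stayed apart both before and after GC correction. Each sequence covers 250 bases before to 50 bases after the start site (RefSeq, GRCm38.p6), 5′ to 3′ on the strand of the gene. The Plin2 window is chr4:86670010-86670309 and the Cd36 window chr5:17835847-17836146, both on the minus strand. The Cd36 window lies inside the annotated gene (chr5:17781690-17888801), downstream of its 5′ end, and which start site these livers used was not tested. Capitals mark 3 motifs, searched on both strands: AGGTCA, the half-site bound by nuclear receptors such as PPARG and RXR; AGGTCANAGGTCA (DR1, the full element of that pair) with up to 2 mismatches, which can overlap a half-site; and GCGTG, the core of the AHR response element.
Plin2: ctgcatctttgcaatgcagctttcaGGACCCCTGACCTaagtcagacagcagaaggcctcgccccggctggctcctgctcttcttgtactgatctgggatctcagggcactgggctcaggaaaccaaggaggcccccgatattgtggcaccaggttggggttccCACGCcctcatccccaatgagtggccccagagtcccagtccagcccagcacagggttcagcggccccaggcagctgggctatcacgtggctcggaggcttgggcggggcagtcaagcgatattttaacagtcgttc
Cd36: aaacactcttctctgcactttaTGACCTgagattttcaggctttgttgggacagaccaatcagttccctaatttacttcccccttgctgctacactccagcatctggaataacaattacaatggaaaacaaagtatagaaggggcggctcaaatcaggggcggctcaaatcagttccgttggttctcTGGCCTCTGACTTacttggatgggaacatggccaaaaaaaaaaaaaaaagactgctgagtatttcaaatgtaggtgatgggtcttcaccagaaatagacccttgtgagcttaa
The Plin2 window held a DR1 with 2 mismatches at -225, which ends in a half-site at -218, and an AHR core at -86, all on the reverse strand and counted from the start site. The Cd36 window held a half-site at -228 and a DR1 with 2 mismatches at -63, also on the reverse strand, and no GCGTG. Among all 32851 promoters of the table, 16.3% held AGGTCA, 32.4% held GCGTG and 3.86% held a DR1 with up to 2 mismatches. A promoter was found for 8 of the 10 genes, not for Cidea or Fabp4. A match describes the letters only, and binding was not measured.

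Per kilobase of coding transcripts, Plin2 was the most abundant of the 10 genes in HFD control, at 556 ± 41.2 CPM/kb (SD, n = 5). Cd36 (62.3 ± 17.3), Fabp4 (62 ± 70.4), Cidec (60.3 ± 14.8) and Cidea (55.3 ± 20.3) followed within each other's SD. Pnpla2 stood at 32.4 ± 2.24 and Plin5 at 23.0 ± 3.86 CPM/kb. Plin4 (11.6 ± 4.90), Pparg (10.8 ± 1.53) and Mogat1 (9.58 ± 4.87) were lowest and did not differ beyond their spread. Fabp4 in HFD control varied most, with a coefficient of variation of 114%, and Pnpla2 and Plin2 least, with 6.93% and 7.42%.

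**Figure D1:**
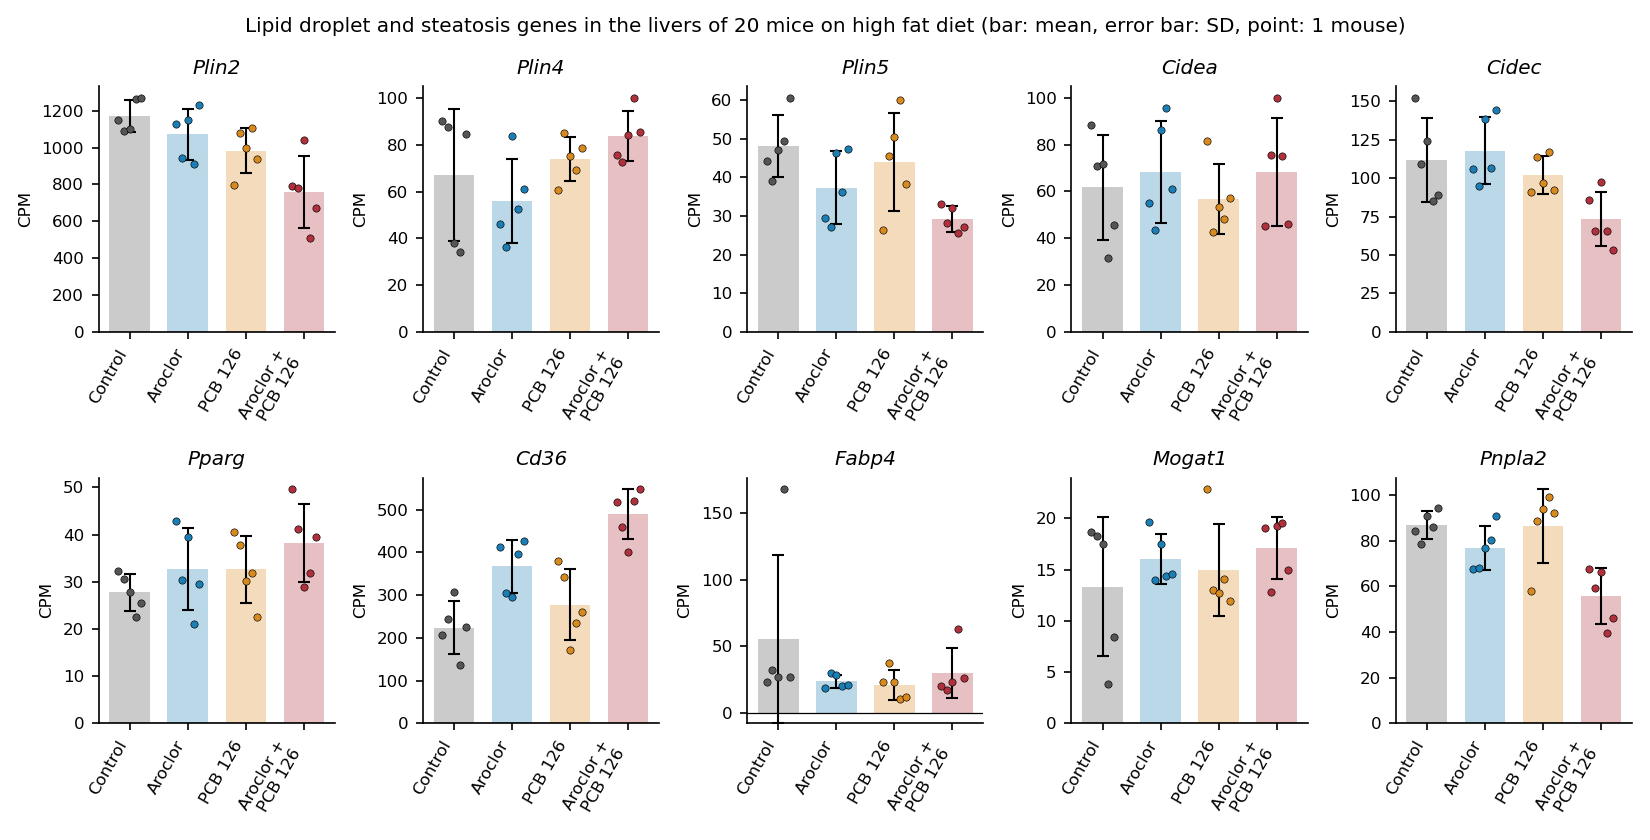
Level of each of the 10 genes (CPM, linear axis) in the 4 groups; each point is 1 mouse, the bar is the group mean and the error bar the SD over 5 mice. Plin2, Plin5 and Pnpla2 of the combined exposure lie below every control mouse and Cd36 lies above, while the high Fabp4 mean of HFD control comes from 1 mouse at 168 CPM.

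Plin2 (ENSMUSG00000028494, chr4:86648386-86670060, minus strand, GRCm38) encodes the coat protein that covers droplets in most cells and follows their lipid content. In HFD control its level was 1147, 1089, 1099, 1261 and 1270.3 CPM in replicates 1 to 5. In the combined exposure it was 794, 778, 1040.1, 509.9 and 673 CPM, so that all 5 exposed mice lay below all 5 controls. The difference was a log2FC of -0.63 (SE 0.145, adjusted p = 0.00325, edgeR). In HFD + Aroclor the level was 1072 ± 139 CPM (SD, n = 5) and in HFD + PCB 126 it was 984 ± 122 CPM, and both groups overlapped the control mice. Their log2FC was -0.13 (SE 0.144, adjusted p = 0.641, edgeR) and -0.25 (SE 0.144, adjusted p = 0.418, edgeR). The GC content of the Plin2 exons, 51.0%, lies in the middle of the 10 genes, and after GC correction the combined difference was -0.60 (SE 0.135, adjusted p = 0.0112, edgeR), again with no overlap between the groups. It was -0.51 (adjusted p = 0.01) without the 2 libraries with Ucp1 and -0.47 (adjusted p = 0.0457) with both changes, by edgeR. With 1 mouse of the 2 compared groups left out it lay between -0.79 and -0.56, or -0.73 and -0.50 after GC correction, past the threshold in all 10 fits of each kind.

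Plin5 (ENSMUSG00000011305, chr17:56111601-56117596, minus strand) coats droplets in tissues that burn fat and tethers them to mitochondria. Its level was 44.2, 39.0, 47.1, 49.6 and 60.7 CPM in the HFD control mice and 33.2, 28.2, 32.0, 25.6 and 27.1 CPM in the combined exposure. The groups did not overlap, and the log2FC was -0.72 (SE 0.188, adjusted p = 0.00678, edgeR). Plin5 exons have the highest GC content of the 10 genes, 58.7%. After GC correction the difference was -0.11 (SE 0.170, adjusted p = 0.758, edgeR) and the groups overlapped. In the single exposures the level was 37.4 ± 9.38 CPM with Aroclor and 44.1 ± 12.7 CPM with PCB 126, both overlapping HFD control.

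Plin4 (ENSMUSG00000002831, chr17:56100591-56109803, minus strand), a coat protein of nascent droplets that is prominent in adipocytes, lies beside Plin5. Its level was 90.3, 87.8, 38.1, 34 and 84.5 CPM in HFD control, with replicates 3 and 4 well below the others. In the combined exposure it was 75.7, 72.6, 84.3, 100.2 and 85.3 CPM, inside the control range but for replicate 4. The log2FC was 0.32 (SE 0.244, adjusted p = 0.343, edgeR). After GC correction (exon GC 55.9%) Plin4 was 35.0 to 77.5 CPM in HFD control and 83.0 to 148 CPM in the combined exposure, and the log2FC was 0.80 (SE 0.234, adjusted p = 0.0356, edgeR). That call was lost in 4 of the 10 fits that left out 1 mouse. By edgeR, the log2FC and adjusted p were 0.67 and 0.0768 without HFD control replicate 3, 0.67 and 0.0633 without HFD control replicate 4, 0.64 and 0.106 without combined replicate 4, and 0.78 and 0.08 without combined replicate 5. It was 0.50 (adjusted p = 0.177, edgeR) without the 2 libraries with Ucp1. Plin4 exons overlap those of Hdgfl2 on the opposite strand, and no source says whether strand was used in counting, so reads of the pair may not be told apart.

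Cidec (ENSMUSG00000030278, chr6:113424634-113435760, minus strand) joins droplets at their contact sites and transfers lipid to the larger one. It was 152, 109, 124, 85.0 and 88.9 CPM in HFD control and 85.6, 65.6, 97.5, 65.7 and 53.3 CPM in the combined exposure. The groups overlapped, as combined replicates 1 and 3 reached the lowest controls, and the log2FC was -0.61 (SE 0.173, adjusted p = 0.0113, edgeR). After GC correction (exon GC 56.4%) the log2FC was -0.14 (SE 0.135, adjusted p = 0.575, edgeR). With single exposures Cidec was 118 ± 21.8 CPM (Aroclor) and 102 ± 12.3 CPM (PCB 126), against 112 ± 27.5 CPM in HFD control. Its relative Cidea, on chromosome 18, is a brown fat protein that appears in fatty livers. Cidea was 31.7 to 88.3 CPM in HFD control and 45.1 to 100 CPM in the combined exposure, with a log2FC of 0.15 (SE 0.273, adjusted p = 0.726, edgeR), or 0.58 (adjusted p = 0.165) after GC correction. Without the 2 libraries with Ucp1 the log2FC of Cidea was -0.07 (adjusted p = 0.876, edgeR), and the sign also turned without combined replicate 3 alone (-0.05, adjusted p = 0.917, edgeR).

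Cd36 (ENSMUSG00000002944, chr5:17781690-17888801, minus strand) encodes the fatty acid translocase of the plasma membrane, which is also present on macrophages and endothelial cells. It was 206, 244, 307, 136 and 226 CPM in HFD control and 517, 459, 402, 520 and 548 CPM in the combined exposure. Every mouse of the combined exposure lay above every control, and the log2FC was 1.13 (SE 0.203, adjusted p = 0.00104, edgeR). In HFD + Aroclor it was 413, 305, 295, 397 and 427 CPM, where replicates 2 and 3 fell below the highest control. That log2FC of 0.71 had an unadjusted p of 0.00192 and did not pass adjustment (SE 0.201, adjusted p = 0.184, edgeR). After GC correction it was 0.36 (SE 0.169, adjusted p = 0.339, edgeR). In HFD + PCB 126 the level was 278 ± 83.8 CPM (SD, n = 5), with a log2FC of 0.31 (adjusted p = 0.484, edgeR). Cd36 exons have the lowest GC content of the 10 genes, 38.8%. After GC correction its level was 149 to 354 CPM in HFD control and 359 to 407 CPM in the combined exposure, still without overlap, and the log2FC was 0.46 (SE 0.170, adjusted p = 0.0896, edgeR). With 1 mouse left out the corrected log2FC ran from 0.31 to 0.57 and passed in 0 of 10 fits (adjusted p from 0.0509 to 0.172, edgeR). HFD control replicate 4, one of the libraries with Ucp1, was the lowest Cd36 library. Without both such libraries the log2FC was 0.95 (adjusted p = 0.00234, edgeR), or 0.31 (adjusted p = 0.187) with GC correction too. The 8 markers of Kupffer cells and macrophages summed to 210.2 to 489 CPM in HFD control and 278 to 380.1 CPM in the combined exposure, and the 8 endothelial markers to 107 to 204 and 139 to 167 CPM. Both ranges of the combined exposure lay inside those of HFD control. Of the single markers, Adgre1 (macrophage) was called higher before GC correction and not after it (corrected log2FC 0.63, adjusted p = 0.135, edgeR). Stab2 (endothelial) was called lower on both scales (corrected log2FC -0.41, adjusted p = 0.0359, edgeR). The other 7 markers of each of these lists were called on neither scale. The 4 markers of lipid-associated macrophages summed to 78.7 to 91.9 CPM in HFD control and 77 to 143 CPM in the combined exposure. That range reached above the controls. Of these 4, Cd9 was called lower on both scales (corrected log2FC -0.72, adjusted p = 0.0056, edgeR), and the other 3 on neither. The part of these cells in the Cd36 level was not tested.

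Pnpla2 (ENSMUSG00000025509, chr7:141455198-141460743, plus strand) was 84.3, 78.6, 90.5, 86.1 and 94.4 CPM in HFD control and 67.5, 59.2, 66.3, 39.7 and 46.2 CPM in the combined exposure. All exposed mice lay below all controls, and the log2FC was -0.64 (SE 0.148, adjusted p = 0.00341, edgeR). After GC correction (exon GC 57.6%) it was 63.1 to 89.1 CPM in HFD control and 63.8 to 76.5 CPM in the combined exposure, with a log2FC of -0.12 (SE 0.111, adjusted p = 0.556, edgeR). In HFD + PCB 126, replicate 1 stood at 58.1 CPM while the other 4 mice lay between 88.3 and 99.2 CPM.

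Pparg (ENSMUSG00000000440, chr6:115360951-115490399, plus strand) was 32.3, 30.6, 27.9, 22.5 and 25.5 CPM in HFD control and 49.6, 41.3, 28.9, 31.9 and 39.4 CPM in the combined exposure. Combined replicates 3 and 4 lay inside the control range, and the log2FC of 0.46 did not pass the threshold (SE 0.186, adjusted p = 0.0633, edgeR). It did in 1 of the 10 fits that left out a mouse of the 2 compared groups, at 0.53 without combined replicate 3 (adjusted p = 0.0373, edgeR). It also passed without HFD + PCB 126 replicate 5, which is in the fit but not in the comparison (0.46, adjusted p just under 0.05, edgeR), as well as with DESeq2 (0.44, adjusted p = 0.0487) and with the FPKM filter of the study's methods (0.45, adjusted p = 0.0368, edgeR). After GC correction (exon GC 46.4%) it was 0.19 (adjusted p = 0.583, edgeR). Mogat1 (ENSMUSG00000012187, chr1:78510991-78538173, plus strand) was 18.7, 18.2, 17.5, 3.86 and 8.43 CPM in HFD control and 12.8 to 19.5 CPM in the combined exposure, with a log2FC of 0.35 (SE 0.292, adjusted p = 0.388, edgeR). HFD control replicate 4 was again the lowest library, and without the 2 libraries with Ucp1 the log2FC was 0.05. After GC correction it was 0.22 (SE 0.295, adjusted p = 0.712, edgeR). Mogat1 exons overlap those of BC035947 on the opposite strand.

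Fabp4 (ENSMUSG00000062515, chr3:10204088-10208576, minus strand), the fatty acid binding protein of adipocytes, macrophages and capillary endothelium, had a control mean set by 1 mouse. It was 22.8, 32.5, 27.1, 168 and 27.0 CPM in HFD control, and 20.3, 17.4, 23.0, 62.7 and 26.5 CPM in the combined exposure. Replicate 4 was the highest in both groups, and these were the 2 libraries with Ucp1. The same library of HFD control held Adipoq (adiponectin) at 11.4 CPM, and combined replicate 4 held it at 3.02 CPM. HFD + PCB 126 replicate 2 held Adipoq at 3.22 CPM, with Ucp1 at 0.483 CPM and the highest Fabp4 of its group (37.7 CPM). That library stayed in the fits without the 2 libraries with Ucp1. The 5 brown adipocyte markers summed to 40.2 CPM in the control library and 5.49 CPM in the combined one, against at most 2.75 CPM in any HFD + Aroclor or HFD + PCB 126 library. The 8 adipocyte markers summed to 60.4 to 254 CPM in HFD control, 34.9 to 127 CPM with Aroclor, 54.2 to 174 CPM with PCB 126 and 62 to 98.2 CPM with both, and their part in the Fabp4 levels was not tested. Emcn, 1 of the 8 endothelial markers, was also highest in the 2 libraries with Ucp1. It was 8.82 CPM in the control one and 11.9 CPM in the combined one, against at most 5.75 CPM in the other 18. All 8 endothelial markers summed to at most 204 CPM in HFD control, 167 CPM in the combined exposure and 214 CPM with Aroclor. The part of endothelial cells in the Fabp4 levels was not tested. The log2FC of Fabp4 was -1.23 with Aroclor (adjusted p = 0.239, edgeR), -1.39 with PCB 126 (adjusted p = 0.219, edgeR) and -0.89 with both (adjusted p = 0.187, edgeR). After GC correction the combined difference was -1.28 (SE 0.473, adjusted p = 0.0929, edgeR). Without the 2 libraries these were -0.21, -0.38 and -0.34, where the level was 27.4 ± 3.98 CPM (SD, n = 4) in HFD control and 21.8 ± 3.87 CPM in the combined exposure. Without HFD control replicate 4 alone the combined difference was 0.13 (adjusted p = 0.794), and without combined replicate 4 alone it was -1.40 (adjusted p = 0.0463), by edgeR.

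**Figure D2:**
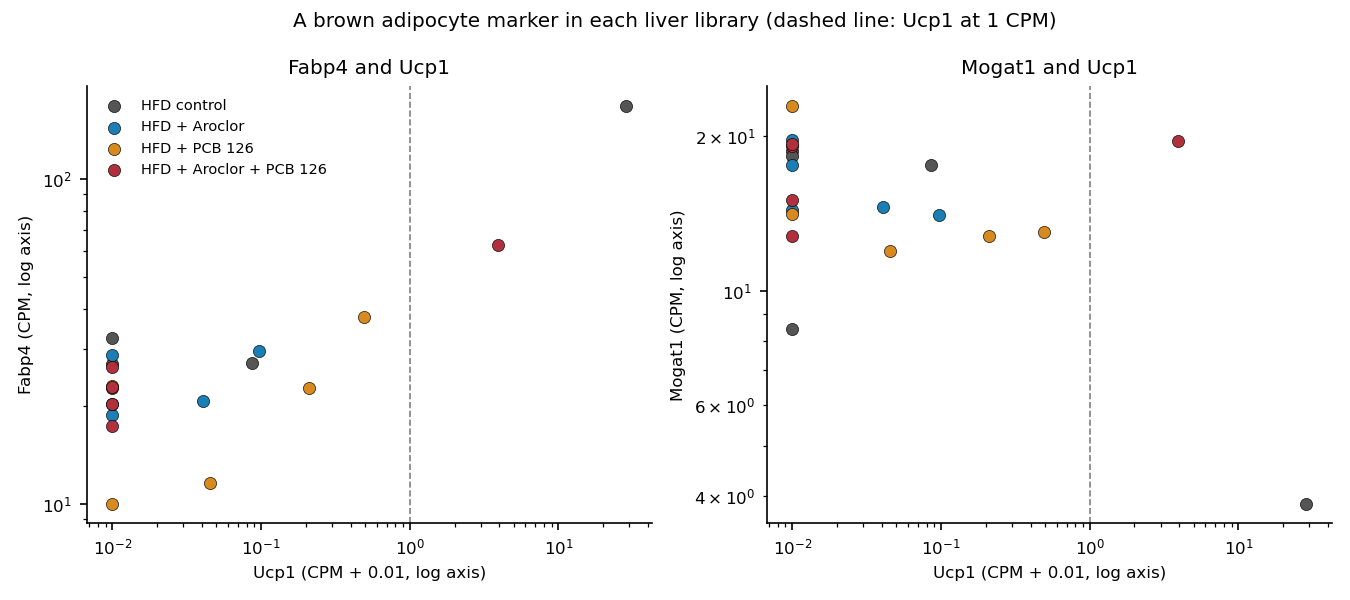
Fabp4 (left) and Mogat1 (right) in CPM against Ucp1 in CPM, both axes logarithmic with 0.01 added to Ucp1; each point is 1 mouse, coloured by group, and the dashed line is 1 CPM of Ucp1. HFD control replicate 4 (28.6 CPM of Ucp1) has the highest Fabp4 and the lowest Mogat1, and combined exposure replicate 4 (3.93 CPM) has the next highest Fabp4.

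Counted over the 10 genes, the combined exposure differed from HFD control in 5 by edgeR, 1 higher and 4 lower, where 32.8% of all tested genes passed. After GC correction 2 passed, 1 higher (Plin4) and 1 lower (Plin2), where 9.34% of all genes did. That corrected background of 1449 genes fell to 627 (4.05%) without combined replicate 5 and to 768 (4.99%) without combined replicate 4. Without combined replicate 5 Plin2 alone of the 10 passed, and without combined replicate 4 Plin2 and Fabp4 did (Fabp4 log2FC -1.70, adjusted p = 0.0476, edgeR). Without the 2 libraries with Ucp1 the background was 30.4%, and 5 of the 10 genes passed. With GC correction as well it was 4.72%, and Plin2 alone passed. Groups did not overlap for 4 of the 10 genes on the plain scale (18.8% of all genes) and for 3 after GC correction (9.27% of all genes). Both shares are above the background, but they rest on few genes, and nothing is read from them about the set as a whole.

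**Figure D3:**
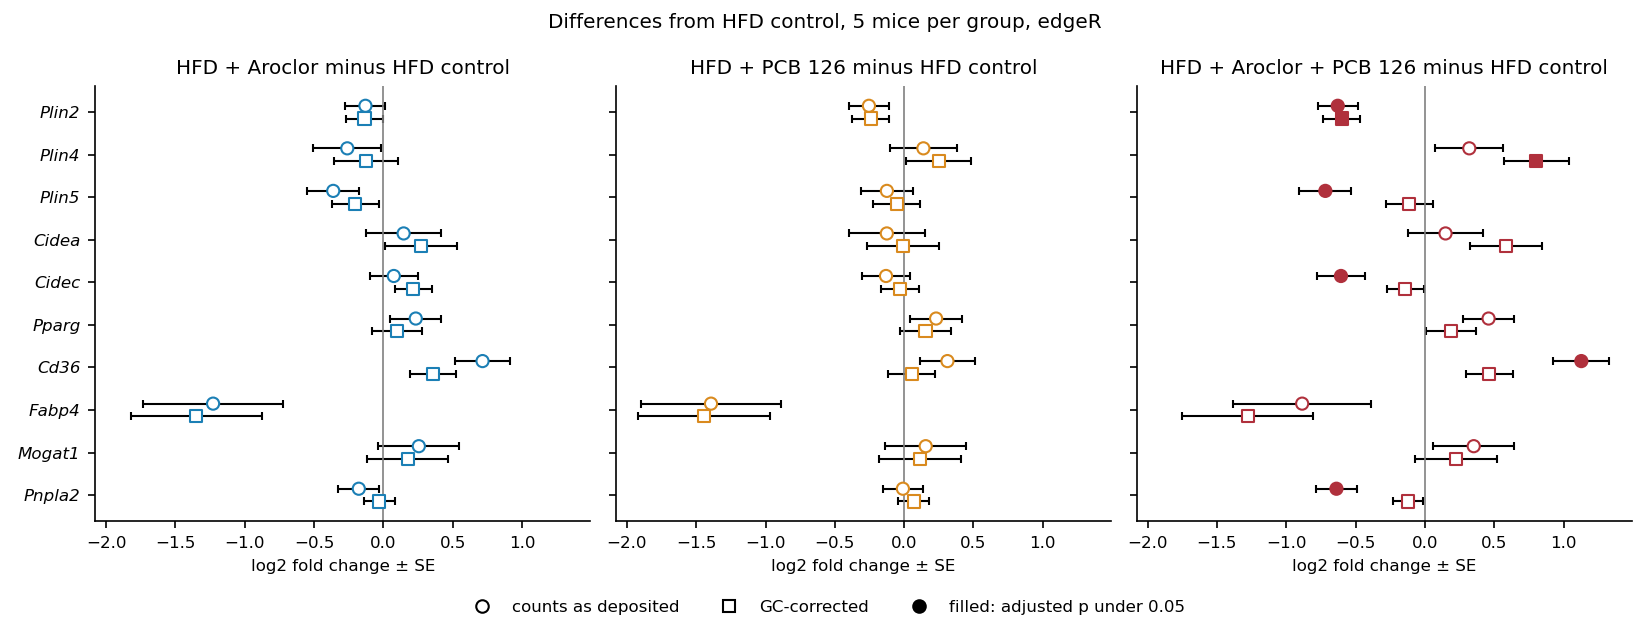
Difference of each exposure from HFD control for the 10 genes, as log2 fold change with its SE, 5 mice per group; circles are from the counts as deposited, squares after GC correction, and filled symbols have an adjusted p under 0.05. Filled symbols occur with the combined exposure alone, 5 circles and 2 squares, and Plin2 has both.

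With Aroclor 1260 alone 0 of the 10 genes passed by edgeR, as did 0% of all genes, and the count was also 0 after GC correction. At an unadjusted p under 0.05 there were 2 (Cd36 and Fabp4), where 17.2% of all genes had such a p, and DESeq2 called 1 (Cd36, log2FC 0.69, adjusted p = 0.0478), where DESeq2 called 0.921% of all genes. DESeq2 was run on the counts as deposited. After GC correction the log2FC of Cd36 with Aroclor was 0.36 (adjusted p = 0.339, edgeR). With PCB 126 alone 0 of 10 passed by edgeR and by DESeq2, which called 2% of all genes. The background was 0.116%, or 0.329% after GC correction, and 1 gene (Fabp4) had an unadjusted p under 0.05, where 14.7% of all genes did.

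Between exposures, which tests what the second PCB adds, the combined exposure differed from PCB 126 alone in 3 of 10 genes by edgeR, where 16.7% of all genes passed. Cd36 was higher (log2FC 0.82, SE 0.201, adjusted p = 0.0166), and Plin5 (-0.59, SE 0.188, adjusted p = 0.0375) and Pnpla2 (-0.63, SE 0.148, adjusted p = 0.0144) were lower. None of the 3 held in every fit with 1 mouse left out. By edgeR, 0 of 10 passed without PCB 126 replicate 3, PCB 126 replicate 4 or combined replicate 5, where 0.0258%, 1.86% and 1.74% of all genes did. Without combined replicate 3, 5 of 10 and 19.8% of all genes passed. After GC correction the log2FC was 0.41 for Cd36 (adjusted p = 0.188), -0.06 for Plin5 (adjusted p = 0.873) and -0.19 for Pnpla2 (adjusted p = 0.341), by edgeR. On that scale 0 of 10 genes and 0 of all genes passed, with 4 of the 10 (Plin2, Plin4, Cidea and Cd36) at an unadjusted p under 0.05, where 20% of all genes had one. The corrected count over all genes was 813 without PCB 126 replicate 1, 134 without HFD control replicate 4 and 65 without combined replicate 3, and it was 0 for the 10 genes in each of these fits. Cd36, 1 of the 10, did not overlap between these groups on either scale, beside 9.91% of all genes before GC correction and 4.84% after it. Between the combined exposure and Aroclor, 0 of 10 genes did not overlap before correction (6.76% of all genes). After it there was 1 (Plin4, beside 3.1%). Against Aroclor alone the combined exposure differed in 0 of 10 by edgeR (background 0.412%, or 0.0387% after GC correction). At an unadjusted p under 0.05 there were 4 (Plin2, Plin4, Cidec and Pnpla2), where 23.4% of all genes had one, and DESeq2 called 3 (Plin2, Cidec and Pnpla2), where it called 8.65% of all genes. The comparisons with the combined exposure share its libraries. PCB 126 and Aroclor differed in 0 of 10 by edgeR and by DESeq2 (background 0.0258% and 0.425%), with 0 at an unadjusted p under 0.05 (9.08% of all genes). The interaction (on the log2 scale, the part of the combined difference that the 2 single differences do not add up to) passed for 0 of 10 by edgeR and by DESeq2 (background 0% and 0.00644%). At an unadjusted p under 0.05 there were 3 (Cidec, Fabp4 and Pnpla2), where 11.9% of all genes had one. After GC correction there was 1 (Fabp4), beside 10.9% of all genes. Before correction there were 0 without HFD control replicate 4 (6.11% of all genes) and 0 without combined replicate 4 (5.75%). A call with the combined exposure and none with a single one is therefore not in itself a tested difference. In the main edgeR fit, over 15522 genes and all 20 mice, the tests between exposures passed only for the 3 against PCB 126 above. None of these 3 passed after GC correction. With the replicate number as a block, Cidec also passed by edgeR. Its log2FC was -0.51 against PCB 126 (adjusted p = 0.0414) and -0.70 against Aroclor (adjusted p = 0.0406), where 20.1% and 3.06% of all genes passed. With the block and GC correction, 0 of 10 passed in either comparison. DESeq2 called the 3 against Aroclor named above. Against PCB 126 its calls included Plin2 (log2FC -0.39, adjusted p = 0.0364) and Cidec (-0.49, adjusted p = 0.0279), where it called 23.4% of all genes. These DESeq2 calls are from the counts as deposited. After GC correction, by edgeR, Plin2, Cidec and Pnpla2 against Aroclor were at -0.46, -0.36 and -0.09 (adjusted p = 0.219, 0.341 and 0.806). Plin2 and Cidec against PCB 126 were at -0.36 and -0.11 on that scale (adjusted p = 0.154 and 0.668, edgeR).

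**Figure D4:**
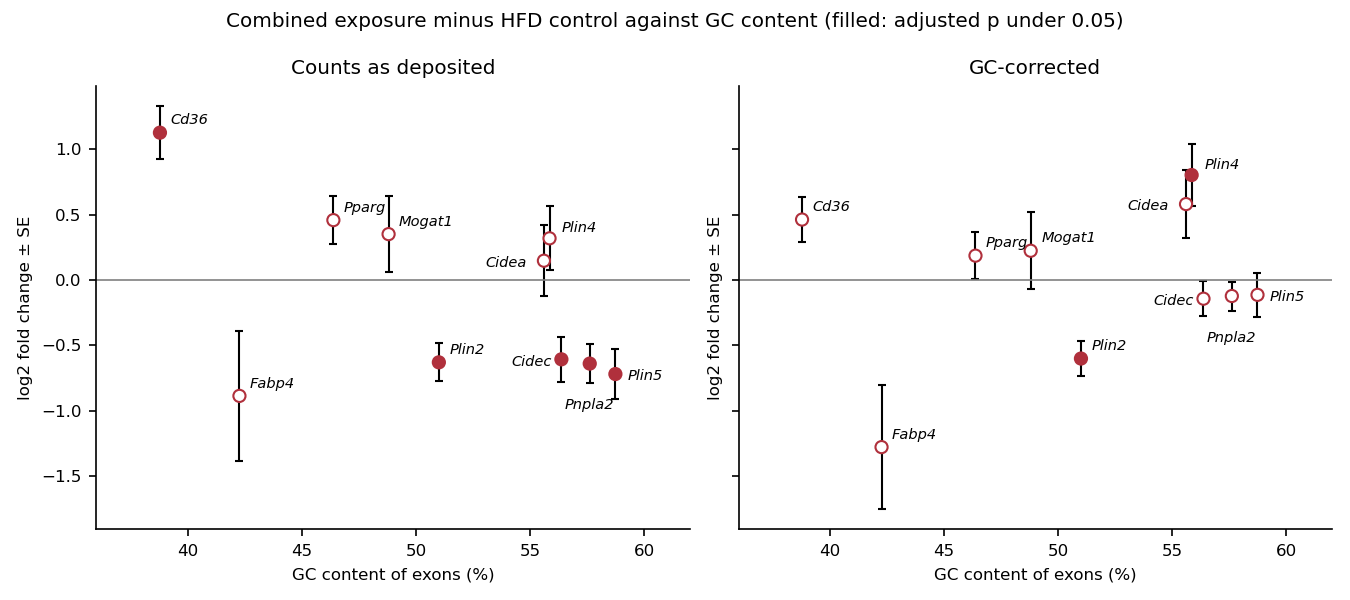
Combined exposure minus HFD control (log2 fold change with its SE) against the GC content of the exons (%), from the counts as deposited (left) and after GC correction (right); each point is 1 of the 10 genes and filled points have an adjusted p under 0.05. On the left Cd36, at 38.8% GC, is highest and Plin5, at 58.7%, is among the lowest, and on the right Plin5, Pnpla2 and Cidec lie near 0 while Plin2 stays at -0.60.

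The neighbouring steps of the pathway were read from 5 further lists, of which no gene passed the test with either single exposure by edgeR, before or after GC correction. Of their 68 genes, 14 with Aroclor and 9 with PCB 126 had an unadjusted p under 0.05 by edgeR, beside 17.2% and 14.7% of all genes. DESeq2 called 3 with each, beside 0.921% and 2% of all genes (Gpat3, Pcyt1a and Ppargc1a with Aroclor; Mogat2, Pcyt1a and Ppargc1a with PCB 126). The counts with the combined exposure stand beside 32.8% of all genes past the threshold before GC correction and 9.34% after it, and nothing is read from them about a list as a whole. Among 17 other droplet proteins, 4 were higher and 5 lower with the combined exposure, or 3 and 2 after GC correction. Acsl3, an acyl-CoA synthetase of nascent droplets, was higher (log2FC 1.20, SE 0.257, adjusted p = 0.00226, edgeR), and still after GC correction (0.78, adjusted p = 0.0401). So was Pcyt1a, which makes the phosphatidylcholine of the droplet surface (0.68, SE 0.123, adjusted p = 0.00104, and 0.55, adjusted p = 0.0056, edgeR). Rab18, a GTPase of the droplet surface, was higher before correction (0.74, adjusted p = 0.00138) and not after it (0.24, adjusted p = 0.0988, edgeR). Of 16 genes of triglyceride synthesis, 1 was higher and 3 lower, or 1 and 0 after correction, at or below those shares. The higher one was Gpat3, which begins glycerolipid synthesis (0.82, SE 0.169, adjusted p = 0.00184, and 0.67, adjusted p = 0.0128, edgeR). Agpat1 and Agpat3, of the next step, were lower before correction (-0.64 and -0.38) and at 0.01 and 0.06 after it.

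Of 12 genes of lipolysis, 3 were higher and 1 lower, or 1 and 0 after correction, near the same shares of all genes. Ces1d, a carboxylesterase that hydrolyses stored triglyceride, was higher on both scales (log2FC 1.27, SE 0.247, adjusted p = 0.00134, and 1.13, adjusted p = 0.00959, edgeR), whereas its relative Ces1g (0.98, adjusted p = 0.014) and the lysosomal lipase gene Lipa (0.46, adjusted p = 0.0107) were higher before correction only. Ces1d belongs to a cluster of similar genes, so its reads may be shared with relatives. Of 10 other genes of fatty acid uptake and binding, 0 were higher and 2 lower on each scale. Fabp5, the epidermal fatty acid binding protein, was lower on both (-1.49, SE 0.375, adjusted p = 0.00549, and -1.62, adjusted p = 0.0135, edgeR), and the transporter gene Slc27a4 before correction only (-0.66, adjusted p = 0.00234). Of 13 partners of PPARG and related regulators, 2 were higher and 6 lower before correction, and 3 higher and 0 lower after it. Ppargc1a, the coactivator of mitochondrial genes, was higher on both scales (0.97, SE 0.136, adjusted p = 0.000505, and 0.66, adjusted p = 0.00518, edgeR). The receptor genes Rxrb (-0.80) and Ppard (-0.79) were lower before correction and at -0.09 and -0.23 after it. A pair of C/EBP transcription factor genes on this list, chosen for mention after their values were seen, moved with the correction. Cebpa was lower before it (-0.32, SE 0.0984, adjusted p = 0.0178) and higher after it (0.44, SE 0.108, adjusted p = 0.0167), and Cebpb was at 0.04 (adjusted p = 0.904) before and higher after (1.06, SE 0.192, adjusted p = 0.00354), by edgeR. The median log2FC of the lists lay between -0.22 and 0.118 before correction and between -0.148 and 0.119 after it, beside -0.00096 and -0.0213 over all tested genes.

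Between mice of the same group, Plin2 and Pnpla2 varied together by rank, and this was the only pair whose Spearman correlation passed adjustment. Over 20 mice, as deviations from the group means of GC-corrected log2 CPM, Pearson's r was 0.557 (permutation p = 0.00349, adjusted over 45 pairs of the genes 0.0702) and Spearman's rho 0.693 (permutation p = 0.00108, adjusted 0.0486). Without the 2 mice farthest from the median of Plin2, the first gene of the pair, r was 0.725. Plin5 and Pnpla2 had an r of 0.727 and a rho of 0.62 (permutation p = 0.00438 and 0.0149, adjusted 0.0702 and 0.163), and r was 0.595 without the 2 mice farthest for Plin5. Cd36 and Mogat1 had an r of 0.82 and a rho of 0.564 (permutation p = 0.00624 and 0.0289, adjusted 0.0702 and 0.163). Their r was 0.546 without the 2 mice farthest for Cd36 and 0.632 without the libraries with Ucp1. Mogat1 and Pnpla2 varied in opposite directions, with an r of -0.631 and a rho of -0.591 (permutation p = 0.0139 and 0.0268, adjusted 0.104 and 0.163). Cidea and Mogat1 had an r of 0.606 and a rho of 0.598 (permutation p = 0.00603 and 0.0117, adjusted 0.0702 and 0.163). No Pearson correlation passed adjustment. Among 11341 genes, the 3 whose deviations were most like those of Plin2 were Klhdc3 (r = 0.852), Sars (0.839) and Hax1 (0.804). For Plin5 they were Creld2 (0.902), Hspa5 (0.896) and E2f6 (0.876), of which the first 2 encode proteins of the endoplasmic reticulum. Without GC correction their r with Plin5 was 0.892, 0.664 and 0.47. For Cd36 they were Colec12 (0.897), Gbe1 (0.891) and Mmp19 (0.882), and for Mogat1 Themis (0.941), Aldh1a1 (0.929) and Aldh1a7 (0.928). For Fabp4 they were Procr (0.926), Rgs2 (0.906) and Rims3 (0.894), where HFD control replicate 4 lies far out. For Pnpla2 they were Cand1 (0.906), Supt6 (0.899) and Hsp90ab1 (0.884), though without GC correction r was 0.113, 0.648 and 0.622. These r describe 20 libraries that share their depth and GC trend within each library.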

How the data were processed

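Liver RNA of 20 mice, 5 in each of 4 groups, was analysed from 1 table of raw gene counts. The authors made these counts by preparing stranded polyA libraries, aligning reads to GRCm38.p6 with STAR 2.6 and counting with HTSeq 0.10.0 (per the submitters' processing notes also FastQC 0.10.1), and deposited them before any normalization. Which annotation release and strand option HTSeq used is not given in the sources used here. Replicate and group were read from the sample titles, and the bracketed code of HFD + PCB 126 replicate 2 carries another number. The 10 genes and all gene lists were chosen with earlier results of these data known, and so support nothing independently.

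Genes with at least 10 counts in total (15522 genes) were normalized by TMM and fitted in edgeR 4.0.16 (R 4.3.3) with 1 coefficient per group and 16 residual degrees of freedom. Contrasts were tested two-sided by the quasi-likelihood test, and p was adjusted by Benjamini and Hochberg's method over all tested genes, at a threshold of 0.05. Tests were first tested on simulated data. For GC correction, each library's deviations in log2 CPM were smoothed over GC content (spline, 6 degrees of freedom) and entered as an offset. GC content and coordinates are from GENCODE M21 and cover 21754 of 21780 genes. Level per kilobase uses the exons of protein-coding transcripts. Named genes are the 10 genes, up to 3 called genes per pathway list and comparison with the largest log2FC and a mean of at least 1 CPM, the 3 genes most like each of the 10, and Cyp1a1, Cyp1a2 and Cyp2b10. Correlations were tested by permuting mice within groups. Alternatives were RLE size factors, DESeq2 1.42.0, no filter, the study's FPKM filter, only the compared groups, the replicate block, GC correction, and each mouse left out. Leaving out libraries with at least 1 CPM of Ucp1 was chosen after seeing the data. The 40 pairs of mice of 1 group differed beyond sampling noise (chi-square per degree of freedom at least 19.7), so each library counted as 1 mouse. At these depths each of the 10 genes had at least 88 counts in every library.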

Additional observations from a re-analysis of the deposited data

Results flagged for a closer look

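Of the 40 sets of 5 values (10 genes in 4 groups), 4 held a mouse far from the others by Dixon's test, whose critical value for 5 mice is 0.71; chance gives about 1 in 20 sets. Fabp4 in HFD control replicate 4 was 168 CPM, and the other 4 control mice lay between 22.8 and 32.5 CPM. Fabp4 in combined exposure replicate 4 was 62.7 CPM, and the others lay between 17.4 and 26.5 CPM. These were the libraries with Ucp1 at 28.6 and 3.93 CPM. Whether fat tissue or endothelium in the sample accounts for the Fabp4 level was not tested. Mogat1 in HFD + PCB 126 replicate 1 was 22.8 CPM, against 12.0 to 14.1 CPM in the other mice of that group. Pnpla2 in the same library was 58.1 CPM, against 88.3 to 99.2 CPM.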

How the results depend on the processing

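Among comparisons with HFD control, all 30 log2FC of the 10 genes kept sign and call with RLE size factors, no filter or only the compared groups. Counts of the 10 genes past the threshold moved as follows. With DESeq2 they were 1 for Aroclor against control (beside 0.921% of all genes), 5 for combined against PCB 126 (23.4%) and 3 for combined against Aroclor (8.65%). With the FPKM filter they were 5 (33.8% of all genes) and 2 (6.9%) for the last 2. For combined against control they were 2 with GC correction (9.34% of all genes) and 2 with the replicate block too (9.77%). They were 1 with GC correction and without the Ucp1 libraries (4.72%). For combined against PCB 126 they were 0 in these 3 fits (0%, 1.34% and 0% of all genes). With 1 mouse of the compared groups left out, they ran from 0 to 5 for combined against PCB 126 (5 without combined replicate 3, beside 19.8% of all genes). In such fits they ran from 0 to 3 for combined against Aroclor. There were 1 without combined replicate 1 (1.88% of all genes) and 3 without combined replicate 3 (6.69%). Without HFD control replicate 4, which is in the fit but not in the latter comparison, 1 passed (Cidec, adjusted p = 0.0416, edgeR), beside 3.34% of all genes. Cidec also passed for combined against PCB 126 without HFD control replicate 1 or 4 (adjusted p = 0.0451 and 0.0459, edgeR).

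Counts over all genes moved more. With DESeq2 they were 143 (Aroclor), 310 (PCB 126), 1343 (combined against Aroclor), 66 (PCB 126 against Aroclor) and 1 (interaction), where edgeR gave 0, 18, 64, 4 and 0. With the FPKM filter they were 49 (PCB 126) and 657 (combined against Aroclor), with only the compared groups 4 (PCB 126), 0 (combined against Aroclor) and 2 (PCB 126 against Aroclor), with RLE 107 and without a filter 13 (both combined against Aroclor). With GC correction they were 51 (PCB 126), 1449 (combined), 0 (combined against PCB 126) and 6 (combined against Aroclor). Without the Ucp1 libraries they were 11 (PCB 126), 1461 (combined against PCB 126) and 0 (combined against Aroclor), and with GC correction too 714 (combined), 0 and 0. With 1 mouse of the compared groups left out they ran from 0 to 2 (Aroclor), 4 to 127 (PCB 126), 4 to 3416 (combined against PCB 126), 0 to 1036 (combined against Aroclor) and 1 to 15 (PCB 126 against Aroclor), and with GC correction from 627 to 1526 (combined) and 0 to 813 (combined against PCB 126).

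The replicate numbers of different groups share only a number. Over 30 pairs of mice with the same number the correlation of deviations ran from -0.314 to 0.551 (median 0.0296). With the replicate block the counts over all genes were 26 (Aroclor), 101 (PCB 126), 475 (combined against Aroclor) and 38 (interaction), and 1 of the 10 genes passed for combined against Aroclor. With the block and GC correction they were 19, 116, 1517 (combined), 208 (combined against PCB 126) and 38 (interaction). The block also put Pparg past the threshold for combined against control (0.46, adjusted p = 0.0171, edgeR).

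Signs turned for log2FC that had not passed the threshold. Without the Ucp1 libraries Cidea (-0.02) and Cidec (-0.01) turned for Aroclor, Plin4 (-0.02) and Mogat1 (-0.07) for PCB 126, Cidea (-0.07) for the combined exposure, and Cidea (-0.05) and Fabp4 (-0.13) for combined against Aroclor. With GC correction too, Mogat1 (-0.06) and Pnpla2 (0.03) turned for Aroclor, Plin5 (0.04), Cd36 (-0.10), Mogat1 (-0.12) and Pnpla2 (0.13) for PCB 126, Mogat1 (-0.06, against either the plain or the GC-corrected value) for the combined exposure, Fabp4 (-0.25) for combined against PCB 126, and Plin5 (0.03), Fabp4 (-0.35) and Mogat1 (0.00) for combined against Aroclor. GC correction alone turned Pnpla2 (0.07) for PCB 126 and Plin5 (0.09) for combined against Aroclor; with the replicate block as well these were 0.07 and 0.10, and Fabp4 was -0.06. The replicate block alone turned Cidea (-0.01) for combined against Aroclor. With 1 mouse left out the log2FC ran from -0.02 to 0.31 (Cidea) and -0.03 to 0.21 (Cidec) for Aroclor. For PCB 126 it ran from -0.03 to 0.27 (Plin4), -0.26 to 0.01 (Plin5), -0.29 to 0.04 (Cidea), -0.22 to 0.01 (Cidec), -0.08 to 0.31 (Mogat1) and -0.06 to 0.10 (Pnpla2). For the combined exposure it ran from -0.05 to 0.31 (Cidea), -1.40 to 0.13 (Fabp4) and, GC-corrected, -0.01 to 0.38 (Mogat1), and against Aroclor from -0.19 to 0.13 (Cidea) and -0.15 to 0.49 (Fabp4). The cause of these changes was not tested.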
